A study of Homo sapiens with 13 samples.

Results

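Progress from G1 into S phase is governed by a small set of genes. D-type cyclins (CCND1, CCND2 and CCND3) activate the kinases CDK4 and CDK6, E-type cyclins (CCNE1 and CCNE2) activate CDK2, and these kinases phosphorylate the retinoblastoma protein (RB1), which in its unphosphorylated form holds back E2F transcription factors. CDKN1B encodes p27, an inhibitor that binds the CDK2 complexes and also the complexes of D-type cyclins. D-type cyclins are unstable proteins whose supply follows growth signals, and Cyclin D1 is often named among those whose output depends on the cap-binding complex eIF4F.

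The 10 genes were taken by symbol from 24875 gene symbols in a table of Silvestrol-treated cells and from 13121 in a table of INK128-treated cells, and all 10 were listed in both. The cells were MDA-MB-231, an established human line of triple-negative breast cancer. Ribosome footprint (RF) libraries of the Silvestrol experiment came from untreated cells (1 library), from cells given the vehicle DMSO or 25 nM Silvestrol for 1 h (1 library each) and from cells given either for 2 h (2 libraries each, from passages 3 and 4). mRNA was sequenced at 2 h in 1 DMSO and 1 Silvestrol library of passage 3. In a separate experiment, RFs and total RNA were sequenced after 2 h of DMSO or 200 nM INK128, with 1 library per treatment and assay. Silvestrol inhibits eIF4A, the RNA helicase of eIF4F, and INK128 inhibits the catalytic site of the kinase mTOR, so the experiment asks how the loss of either activity moves ribosomes among mRNAs.

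RFs are the fragments of mRNA that ribosomes shield from nuclease, and their density on a coding sequence is given here in reads per kilobase and library size (RPKM). Translation efficiency (TE) is RF RPKM over mRNA RPKM. Counted reads ranged from 2652423 in the passage 4 Silvestrol RF library to 50315607 in the DMSO mRNA library, so passage 4 is the less precise of the passages. The line's markers VIM, CD44, KRT18 and CAV1 had RF RPKM values of at least 47.4 in every RF library, ESR1 and the T-cell marker CD3E had no read in any library, and PGR, CDH1 and PTPRC had RF RPKM values of at most 0.108. ERBB2 ranged from 1.63 to 4.05 in RFs, the fibroblast markers COL1A2 from 0.181 to 1.08 and PDGFRB from 0.423 to 2.25, and the vessel marker PECAM1 had no RF RPKM value listed and 0.863 RPKM in DMSO mRNA. The INK4 inhibitor gene CDKN2A, whose product blocks CDK4 and CDK6, had 0 reads as well. The treatment field of the labels goes against the title for the passage 3 Silvestrol RFs of 2 h, where it says 1 h, and for the DMSO mRNA, where it says untreated. These libraries were placed by title, and all TE changes with Silvestrol use that mRNA. Values are relative to each library's own total, so a change shared by all mRNAs does not appear, and in bulk cultures fewer cells with a transcript cannot be told apart from less of it per cell.

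The start codons of these mRNAs are shown because they are where the initiating ribosome settles, and because genes that moved and some that did not can be set side by side there. Each line gives 9 bases before and 4 after the annotated start codon, which is in capitals, 5′ to 3′ on the coding strand, read from GRCh37 (hg19) by the coordinates of the GENCODE version 44 transcript.
CCND1, chr11:69456073-69456088: gccccagccATGgaac
CCND2, chr12:4383198-4383213: gggctggccATGgagc
CCND3, chr6:41909381-41909396: tgcccgagtATGgagc
CDK4, chr12:58145494-58145509: gatctgagaATGgcta
CDK6, chr7:92462631-92462646: ccaggcggcATGgaga
CDK2, chr12:56360784-56360799: tggcgcttcATGgaga
CCNE1, chr19:30303454-30303469: agccccatcATGccga
All 3 D-type cyclins and both of their kinases have a purine 3 bases before the ATG and a G just after it, the arrangement of a strong Kozak context, as do 48.1% of 9046 genes. CDK2 lacks the purine, which 87.7% of genes have, and CCNE1 lacks the G. RB1 and CDKN1B, whose sequences are not printed, have the purine and lack the G. By this rule CCND1 and CCND3 have the same kind of start codon, and so do CDK4 and CDK6.

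The 5′ untranslated regions (UTRs) of the same transcripts differed more. CDKN1B and CDK6 had the longest, 472 and 463 nucleotides, longer than those of 92.7% and 92.3% of 9068 genes, and their predicted folding energies were −203.6 and −221.6 kcal/mol. Per nucleotide these were −0.431 and −0.479, inside the range of the members, from −0.216 for CCNE2 to −0.505 for CCNE1. CCND2 followed with 279 nucleotides. CCNE1 (186), CDK2 (179), RB1 (162), CCND3 (159), CCND1 (158) and CDK4 (155) lay close together and above the median of 134, and CCNE2 had 51. As annotated in these transcripts, CCND1 and CCND3 thus differed by a single nucleotide in length. The GC content was 72.8% in CCND1 and 80.5% in CCND3, and the folding energies were −59.0 and −80.0 kcal/mol. CDK4 and CDK6 each held 2 upstream ATG triplets, which 38.5% of genes have at least once, and the other 8 genes held 0. Other annotated transcripts of the same genes have longer 5′ UTRs, up to 752 nucleotides for CCND3, 638 for CCND2 and 376 for CDK4. The CCND1 locus given for the INK128 experiment begins at chr11:69455873, upstream of the CCND1 5′ UTR used here, which begins at chr11:69455924. Values per gene do not tell which start is in use.

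In control cells the members covered a wide range of ribosome density. CCND1 (chr11:69455873-69469242 in hg19) had a mean RF RPKM of 1067 ± 31.6 (SD, n = 4 libraries), above 99.3% of the 10516 genes that passed a minimum of 1 RF RPKM and 0.3 mRNA RPKM, as all 10 members did. CDK4 (chr12:58141510-58146230) followed with 248 ± 13.1 and CCND3 (chr6:41902671-42016610) with 238 ± 11.8, and their libraries overlapped. CDK2 (chr12:56360556-56366568) had 163 ± 20.0 and CDK6 (chr7:92234235-92465941) had 92.9 ± 4.37, each apart from its neighbours in this order. CCNE2, RB1 (chr13:48877883-49056026) and CDKN1B (chr12:12870302-12875305) had 64.3 ± 15.3, 63.6 ± 5.95 and 57.1 ± 8.62, and could not be ordered beyond their spread. CCNE1 (chr19:30302901-30315215) had 18.2 ± 1.77. CCND2 (chr12:4382902-4414522) was the lowest, with 5.86 ± 2.25, and the mean of CCND1 was 182 times as high.

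Ribosome density and mRNA abundance ordered the genes differently. CDK4 had the highest DMSO mRNA RPKM of the group, 227, and CCND3 had 180, but their control TE values were only 1.10 and 1.29, below the median of 1.84 over all genes. CDK6 mRNA stood at 8.75 with a TE of 10.3, higher than in 97.9% of genes, and CCND2 mRNA at 0.357 with a TE of 16.8. CCND1 had 170.5 and 6.28, CCNE2 9.45 and 6.25, CDK2 34.3 and 5.10, RB1 11.7 and 4.99, CDKN1B 13.3 and 4.16, and CCNE1 11.0 and 1.57. The control TE of CDK6 was thus above that of CDK4 and the control TE of CCND1 above that of CCND3, in 1 library per assay and so without a replicate check. RFs and mRNA were counted over stretches of different length, by an amount that differs between genes. In the DMSO libraries used, CDK6 had 3017 reads at 90.2 RF RPKM and 6430 at 8.75 mRNA RPKM. CDK4 had 6963 at 248.5 and 19111 at 226.5. A TE compared between genes thus also depends on the lengths counted.

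With Silvestrol, the footprints of Cyclin D1 and CDK6 fell, and those of the scarce Cyclin D2 were low in every treated library. The other 7 genes had log2 RF changes between −0.42 and 0.29 at 2 h, none of which passed the test. At 2 h edgeR's quasi-likelihood test called 2 of the 10 genes lower and 0 higher, against 7.66% of all genes called lower and 2.26% called higher. The unadjusted p was under 0.05 for 3 of the 10 (these and CCND2) and for 31.3% of all genes. DESeq2 called the same 2 lower and 0 higher, against 9.59% and 5.37% of all genes. The median log2 RF change of the members was −0.35 and that of all genes −0.01.

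**Figure D1:**
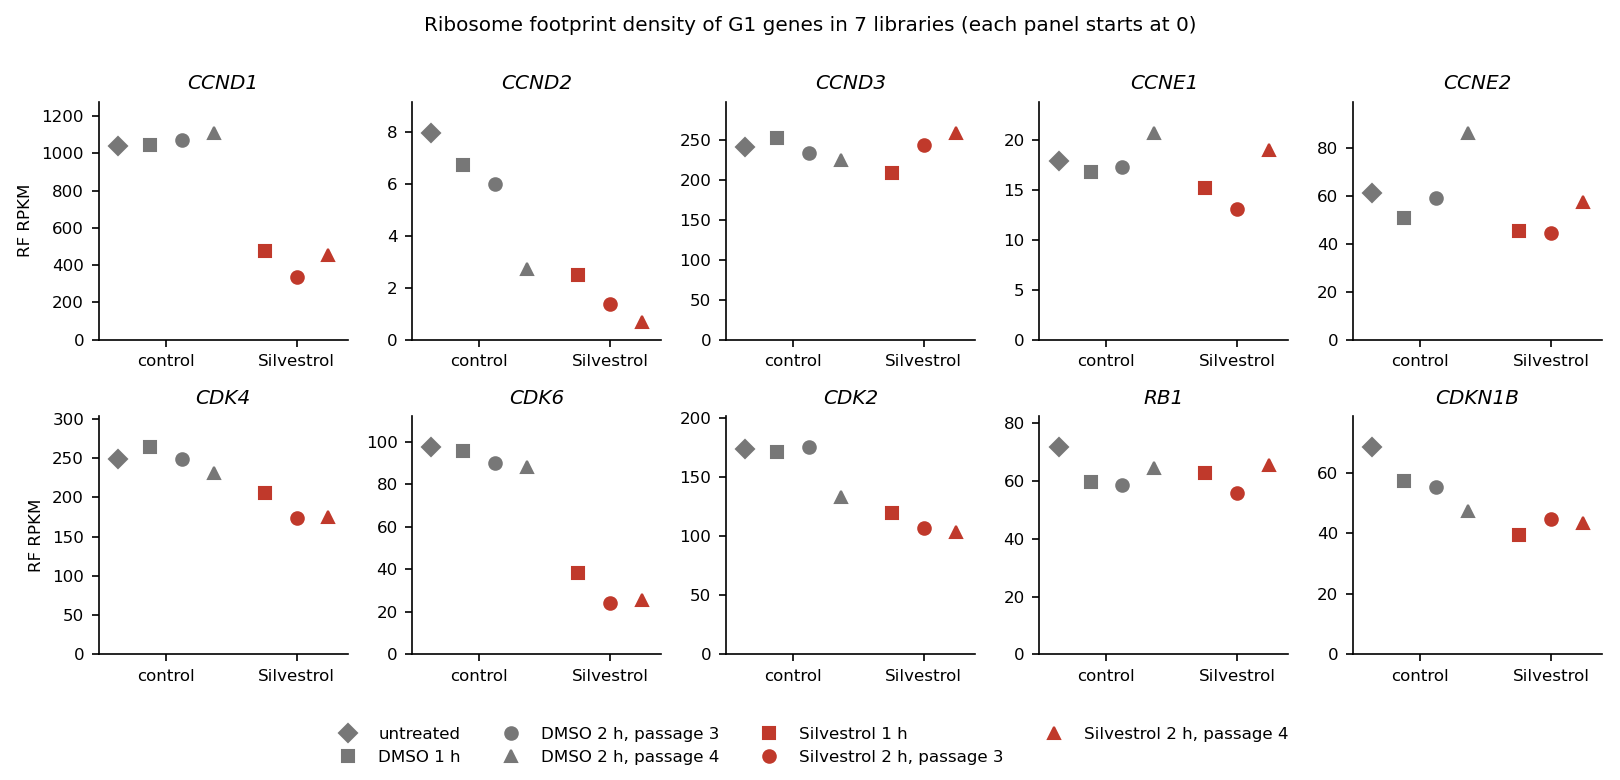
RF RPKM of each gene (vertical axis, starting at 0) in the 4 control libraries (grey) and the 3 Silvestrol libraries (red), 1 point per library, with the marker shape giving time and passage. CCND1, CCND2, CDK4, CDK6, CDK2 and CDKN1B have all red points below all grey points, with the widest gaps at CCND1 and CDK6, while CCND3, CCNE1, CCNE2 and RB1 overlap.

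Cyclin D1, the partner of CDK4 and CDK6 most often amplified in breast cancer, had RF RPKM values of 1041 in untreated cells, 1047 with DMSO at 1 h, and 1070 and 1111 with DMSO at 2 h in passages 3 and 4. With Silvestrol it had 476 at 1 h, and 335 and 455 at 2 h. The highest control library exceeded the lowest by 6.69%, and the highest treated library reached 45.7% of the lowest control. At 2 h the log2 RF change was −1.30 (SE 0.16, adjusted p = 0.020 in edgeR), a level 2.47-fold lower. DMSO-treated cells had 170.5 RPKM of its mRNA and Silvestrol-treated cells 233.

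CDK6 had RF RPKM values of 97.4 in untreated cells, 95.8 with DMSO at 1 h, and 90.2 and 88.3 with DMSO at 2 h, against 38.3 with Silvestrol at 1 h, and 24.3 and 25.8 at 2 h. The groups were far apart, and both 2 h libraries lay below the 1 h library. The log2 RF change at 2 h was −1.71 (SE 0.15, adjusted p = 0.017 in edgeR), or 3.26-fold lower. Its mRNA stood at 8.75 RPKM in DMSO and at 11.2 in Silvestrol. Both calls ended in edgeR when a Silvestrol library at 2 h was left out, with adjusted p-values of 0.167 for CCND1 and for CDK6 without that of passage 3, and of 0.12 and 0.13 without that of passage 4. In these fits, which leave 1 Silvestrol library, edgeR called 0 genes of the whole table, with 1593 and 1897 at an unadjusted p under 0.05. Leaving out any 1 of the 4 libraries gave log2 changes from −1.52 to −1.14 for CCND1 and from −1.75 to −1.66 for CDK6.

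Cyclin D2 is the rare D-type cyclin in these cells. Its RF RPKM values were 7.98 untreated, 6.75 with DMSO at 1 h, and 5.99 and 2.71 with DMSO at 2 h, resting on 207, 213, 163 and 18 reads, against 2.50, 1.37 and 0.697 with Silvestrol at 1 h and at 2 h in passages 3 and 4, resting on 59, 19 and 2 reads. In RPKM all treated libraries lay below all controls, although the 1 h Silvestrol library reached 92.3% of the passage 4 DMSO library. The log2 RF change at 2 h was −1.75 (SE 0.60) and did not pass the test (adjusted p = 0.12 in edgeR), while with the passage as a block it did (adjusted p = 3.0e-05), as it did without the passage 4 DMSO library (log2 change −2.14, adjusted p = 0.045 in edgeR). Without the passage 3 DMSO library the log2 change was −0.97 (adjusted p = 0.37), and without the Silvestrol library of passage 3 it was −2.56 (adjusted p = 0.33), both in edgeR. Without the Silvestrol library of passage 4 it was also negative (adjusted p = 0.36 in edgeR). Within passage 3 the ratio of Silvestrol to DMSO was 0.229 with a 95% counting interval of 0.134 to 0.369, and within passage 4 it was 0.257 with an interval of 0.0289 to 1.07. DESeq2 gave no adjusted p for CCND2.

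Cyclin D3 behaved unlike the other D-type cyclins. It had RF RPKM values of 241 untreated, 252, 233 and 225 with DMSO at 1 h and 2 h, and 208, 244 and 259 with Silvestrol. The 1 h Silvestrol library was the lowest of the 7 and the passage 4 Silvestrol library the highest, so the groups overlapped. The log2 RF change at 2 h was 0.29 (SE 0.13, adjusted p = 0.19 in edgeR), and 0.0086 with the passage as a block. Its mRNA stood at 180 RPKM in DMSO and at 117 in Silvestrol.

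CDK4, the more abundant of the D-type cyclin kinases, had RF RPKM values of 249, 264, 248 and 232 in untreated and DMSO libraries and 205, 174 and 175 with Silvestrol. The treated libraries all lay below the controls by a modest margin, and the log2 change at 2 h was −0.30 (SE 0.12, adjusted p = 0.17 in edgeR, and 0.0054 with the block). CDK4 mRNA stood at 227 RPKM in DMSO and at 131 in Silvestrol. CDK2, the kinase of the E-type cyclins, had 173, 171, 175 and 133 in the controls and 120, 107 and 104 with Silvestrol, also without overlap, with a log2 change of −0.42 (SE 0.19, adjusted p = 0.20 in edgeR, and 2.8e-04 with the block). Without the passage 3 DMSO library the CDK2 change was −0.18, and without that of passage 4 it was −0.63.

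The E-type cyclins overlapped between treated and control libraries. Cyclin E1 had RF RPKM values of 18.0, 16.7, 17.3 and 20.7 in the controls and 15.2, 13.1 and 19.0 with Silvestrol, and Cyclin E2 had 61.1, 50.8, 59.1 and 86.2 against 45.1, 44.4 and 57.2. In both genes the passage 4 Silvestrol library reached into the control range, while within each of the 3 pairs of the same time and passage Silvestrol was lower than DMSO. The log2 changes at 2 h were −0.14 (SE 0.23, adjusted p = 0.70 in edgeR) for CCNE1 and −0.39 (SE 0.21, adjusted p = 0.27) for CCNE2, and the block fit gave adjusted p = 0.41 and 0.0055. Without the passage 4 DMSO library the CCNE2 change was −0.14, and without that of passage 3 it was −0.62.

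RB1, the substrate that these kinases act on, had RF RPKM values of 71.7, 59.8, 58.6 and 64.5 in the controls and 62.7, 55.8 and 65.5 with Silvestrol, fully interleaved, and its log2 change was 0.10 (SE 0.13, adjusted p = 0.63 in edgeR). The p27 gene CDKN1B had 68.4, 57.1, 55.2 and 47.5 against 39.4, 44.6 and 43.3, with every treated library below every control in RPKM but a gap of only 2.97 RPKM between the groups. Its log2 change was −0.10 (SE 0.19, adjusted p = 0.75 in edgeR).

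Over the 7 RF libraries, 6 of the 10 genes (CCND1, CCND2, CDK4, CDK6, CDK2 and CDKN1B) had all 3 Silvestrol values below all 4 control values, as did 32.9% of all genes, and 0 had them all above, against 10.2%. In CPM, which scales reads by the total counted in a library and not by gene length, 4 of these 6 had no overlap, since CCND2 and CDKN1B then overlapped, against 25.8% of all genes below and 16.4% above. With the passage as a block, 6 of the 10 were called lower (CCND1, CCND2, CDK6, CDK2, CDK4 and CCNE2) and CCND3 was called higher. That fit has 1 residual degree of freedom, so its p-values rest almost wholly on a spread pooled over genes. It also called 28.1% of all genes lower and 25.0% higher. With the pair of 1 h libraries added and the 3 pairs as a block, 4 were called lower (CCND1, CCND2, CDK6 and CDK2) and 0 higher, against 24.6% and 24.9% of genes, and with the untreated library added to the controls also 4 (CCND1, CCND2, CDK4 and CDK6), against 16.8% of genes lower and 8.55% higher.

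Low values of CCND1, CCND2 and CDK6 were already present at 1 h. The log2 RF change then was −1.43 for CCND2, −1.32 for CDK6 and −1.14 for CCND1, which made 3 of the 10 genes at least 2-fold lower, against 7.98% of all genes, and the other 7 ranged from −0.54 for CDKN1B to 0.07 for RB1. The median of all genes was −0.18. Between 1 h and 2 h of passage 3 the log2 change differed by a further −0.54 for CCND1, −0.57 for CDK6 and −0.70 for CCND2, while over all genes the median of this difference was −0.02. CCND3 went the other way, from −0.28 at 1 h to 0.07 at 2 h in passage 3 and 0.21 in passage 4. With 1 library per treatment at 1 h, none of these differences between times was tested.

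**Figure D2:**
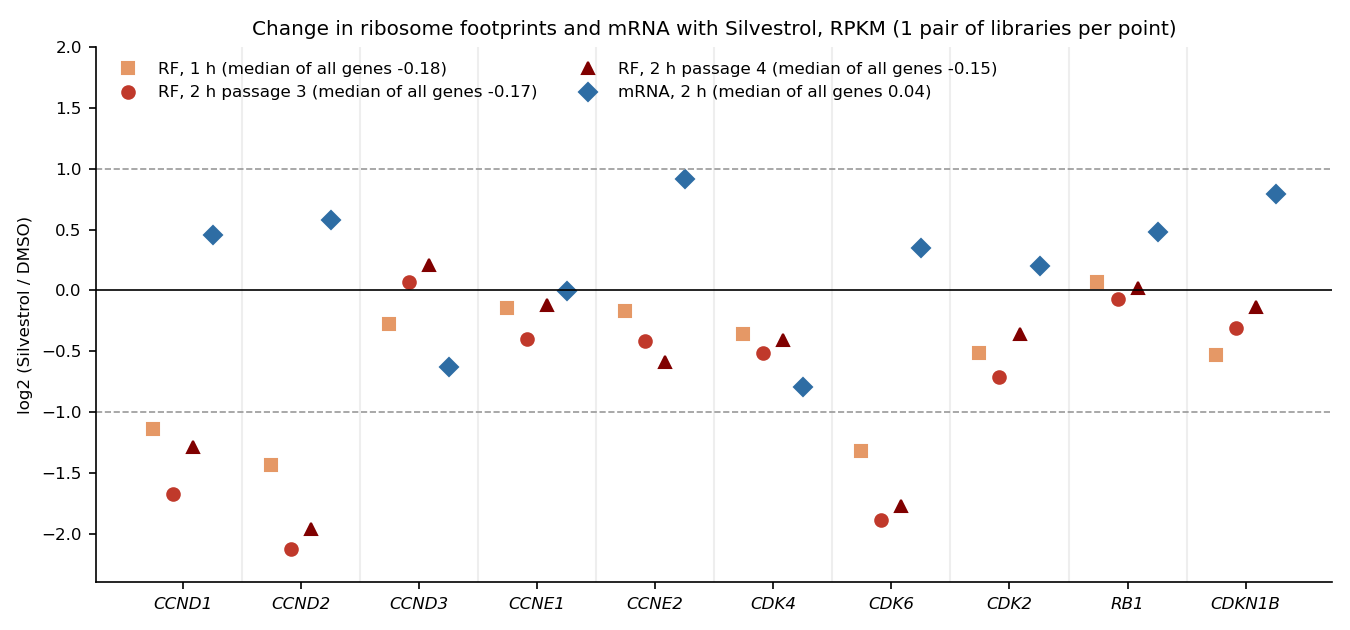
log2 ratio of Silvestrol to DMSO (vertical axis) in RF RPKM at 1 h (squares), at 2 h in passage 3 (circles) and passage 4 (triangles), and in mRNA RPKM at 2 h (diamonds), with dashed lines at 2-fold. CCND1, CCND2 and CDK6 have RF points below −1 and mRNA points above 0, while CCND3 and CDK4 have their mRNA points at −0.63 and −0.79 and RF points above them.

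mRNA and footprint values parted in both directions. Against DMSO the mRNA RPKM with Silvestrol was 1.89-fold higher for CCNE2 (9.45 and 17.8), 1.74-fold higher for CDKN1B (13.3 and 23.0), 1.49-fold higher for CCND2 and 1.39-fold higher for RB1. It was 1.73-fold lower for CDK4 and 1.54-fold lower for CCND3, the only members besides CCNE1, at a log2 change of 0.00, that were not higher. None of the 10 passed 2-fold, against 1.87% of all genes 2-fold lower and 4.70% 2-fold higher, and 1 library per treatment leaves these values without a test.

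TE combined the footprint and mRNA values. Its z-score, the log2 TE change standardized over all genes, was −1.83 for CCND1, −2.42 for CCND2 and −1.95 for CDK6 in passage 3, so that 3 of the 10 genes lay below the threshold of −1.5, against 6.52% of all genes, and 0 lay above 1.5, against 4.62%. With the RFs of passage 4 the same genes had −1.51, −2.35 and −1.91, again 3 below and 0 above, against 6.75% and 4.78%. CCNE2 followed with −1.03 and −1.27, CDKN1B with −0.80 and −0.66 and CDK2 with −0.61 and −0.28, whereas RB1 (−0.24 and −0.16) and CCNE1 (−0.09 and 0.18) stayed near the mean. CDK4 had 0.59 and 0.71 and CCND3 had 1.02 and 1.18, the highest of the group. Expressed as TE, CCND3 went from 1.29 to 2.09 while CCND1 went from 6.28 to 1.44, which reversed their order. That order also depends on the lengths counted for each gene.

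edgeR's test of the interaction of assay and treatment called 0 of the 10 genes, and 0 of all genes in either direction, although the unadjusted p was under 0.05 for 4 members and for 24.7% of all genes. DESeq2 called CCND1 and CDK6 lower (adjusted p = 0.0016 and 2.1e-04) and CCND3 higher (adjusted p = 0.031), against 5.12% and 3.58% of all genes. Blocking on passage, edgeR called CCND1, CCND2, CDK6, CCNE2, CDKN1B and CDK2 lower and CCND3 and CDK4 higher, against 22.9% and 23.1% of all genes. The interaction estimates were −1.63 (SE 0.28) for CCND1, −1.93 (SE 0.24) for CDK6, −2.19 (SE 0.92) for CCND2, −1.20 (SE 0.39) for CCNE2 and 1.00 (SE 0.24) for CCND3, with adjusted p-values in edgeR of 0.079, 0.073, 0.22, 0.15 and 0.10. Leaving out any 1 RF library gave estimates from −3.05 to −1.42 for CCND2. Only the RF libraries give a spread in this model.

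The kinases that share the D-type cyclins were compared within each library, which removes scaling between libraries. Footprints on CDK4 were 2.56 times those on CDK6 in untreated cells, 2.75 times with DMSO at 1 h, and 2.76 and 2.62 times with DMSO at 2 h. With Silvestrol they were 5.36 times as dense at 1 h, and 7.14 and 6.77 times at 2 h. No control library approached a treated one. For the inverse ratio, CDK6 over CDK4, the log2 difference between treatments was −0.96 at 1 h and −1.37 in either passage at 2 h. The mean difference at 2 h was also −1.37, with SDs of 0.05 in each group (exact permutation test, 2-sided, p = 0.333, the smallest that 2 against 2 libraries allow). With the 1 h libraries added the difference was −1.23 (exact permutation p = 0.1, the smallest that 3 against 3 allow). The mRNA ratio of CDK4 to CDK6 went in the opposite direction, from 25.9 with DMSO to 11.7 with Silvestrol.

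**Figure D3:**
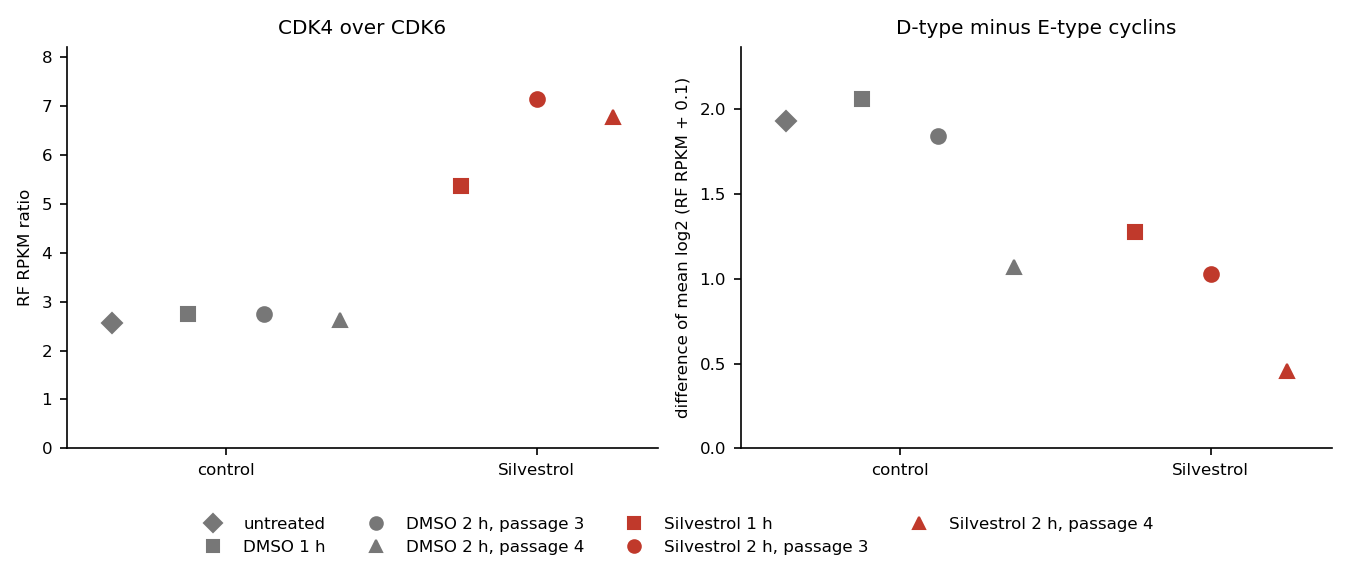
Left, RF RPKM of CDK4 over that of CDK6 in each of 4 control (grey) and 3 Silvestrol (red) libraries; right, mean log2 (RF RPKM + 0.1) of the D-type cyclins minus that of the E-type cyclins. The kinase ratio lies between 2.56 and 2.76 in controls and between 5.36 and 7.14 with Silvestrol, whereas the cyclin difference of the passage 4 DMSO library (1.07) falls among the treated libraries.

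The contrast between cyclin types held up less well. The mean log2 RF level of the D-type cyclins minus that of the E-type cyclins was 1.93, 2.06, 1.84 and 1.07 in the untreated and DMSO libraries and 1.28, 1.03 and 0.46 with Silvestrol, so that the passage 4 DMSO library overlapped the treated ones. Within each pair of libraries Silvestrol minus DMSO was −0.78 at 1 h, −0.81 in passage 3 and −0.61 in passage 4. At 2 h the difference between treatments was −0.71 (SDs 0.55 for DMSO and 0.40 for Silvestrol, exact permutation p = 0.333), and with the 1 h libraries it was −0.74 (exact permutation p = 0.2). Without CCND2, whose few reads carry much of this mean, it was −0.29 (exact permutation p = 0.667), with a pseudocount of 1 it was −0.53 (exact permutation p = 0.667), and leaving out the passage 3 DMSO library gave −0.33 and the passage 4 DMSO library −1.10. Within the D-type cyclins CCND1 and CCND3 differed by more, with log2 RF changes at 2 h of −1.30 and 0.29, than either E-type cyclin differed from 0.

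INK128 was compared with DMSO in a separate experiment. Its values are FPKM, the fragment-based counterpart of RPKM, with 1 library per treatment and assay and no read counts, so depth is unknown and nothing was tested. Total RNA FPKM was lower with INK128 over nearly the whole table, with a median log2 change of −1.17 over 10843 genes against 0.02 for RFs, and values below are therefore relative to those medians. All members except CCND2 passed the minimum of 1 RF FPKM. None of the 9 was 2-fold changed in RFs, against 1.48% of genes 2-fold lower and 1.25% 2-fold higher before this centring.

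CCND1 had RF FPKM values of 99.0 with DMSO and 91.7 with INK128 (−0.13 relative to the median), CCND3 had 58.6 and 50.6 (−0.23), CDK4 52.6 and 58.1 (0.13) and CDK6 4.61 and 5.22 (0.16). Among the 9 genes above the minimum, the largest relative RF differences were those of CCNE1 with 4.98 and 3.51 (−0.52) and CDKN1B with 6.15 and 9.09 (0.54), followed by RB1 with 12.3 and 15.0 (0.27). The relative total RNA change of CDKN1B was 0.95 and that of CCNE2 was −0.67, but these values depended on the pseudocount. With 1 FPKM added they were 0.29 and −0.02, while those of CCND1, CCND3 and CDK4 went from −0.06, −0.14 and −0.08 to −0.70, −0.67 and −0.59. The relative TE change went from −0.07 to 0.55 for CCND1 and from 0.21 to 0.68 for CDK4 with that pseudocount. In total RNA without a pseudocount, none of the 9 was 2-fold from the median, against 1.20% of genes 2-fold lower and 4.26% 2-fold higher. The z-scores of the TE change ranged from −0.67 for CDKN1B to 1.30 for CCNE2 among the 9 genes, so none was past 1.5 in either direction, against 5.29% and 3.08% of genes; CCND2, at 0.317 and 0.261 RF FPKM and below the minimum, had −1.64 and a relative RF change of −0.30.

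**Figure D4:**
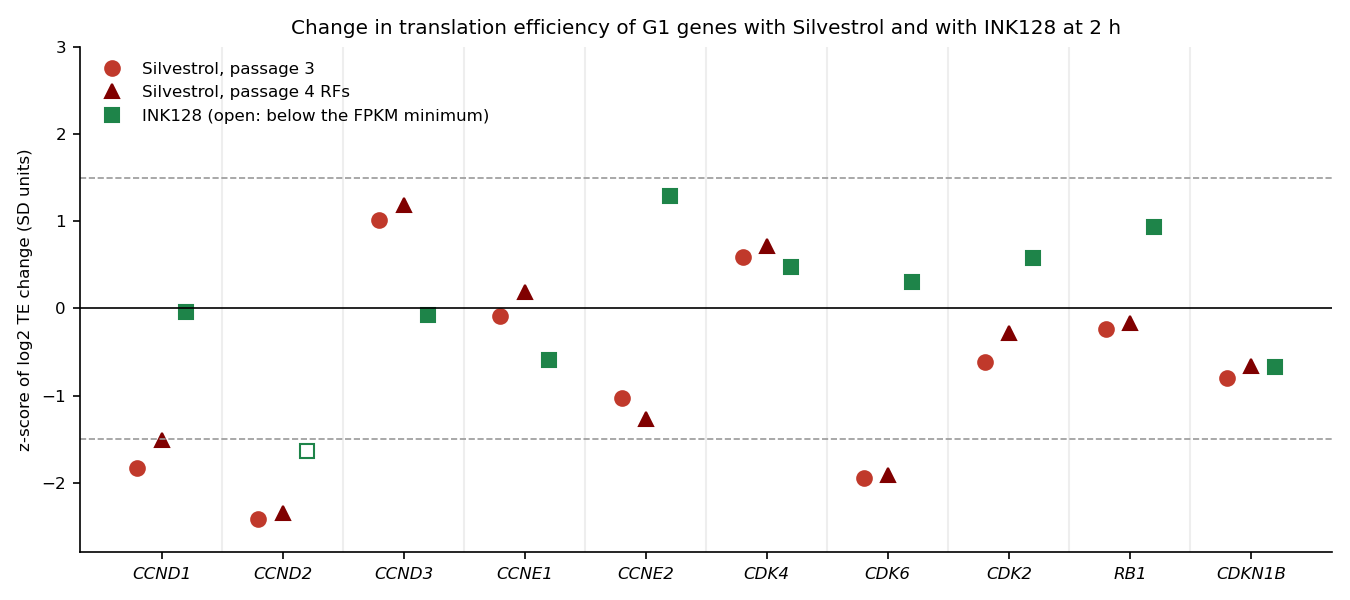
z-score of the log2 TE change (vertical axis, in SDs over all genes of that experiment) with Silvestrol at 2 h in passage 3 (circles) and with passage 4 RFs (triangles), and with INK128 (squares; open for CCND2, below the FPKM minimum), with dashed lines at −1.5 and 1.5. CCND1 and CDK6 lie below −1.5 with Silvestrol and at −0.04 and 0.30 with INK128.

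By their pattern over the 7 RF libraries, the genes most like CCND1 among 7013 with a mean RF RPKM of at least 10 were SHOC2, OSBPL2 and APBB2, with root mean square differences of 0.058, 0.068 and 0.068 in centred log2 RPKM. Those most like CDK6 were PRMT2, GRB10 and TEAD1, at 0.039, 0.073 and 0.075, and CCND1 and CDK6 were 0.226 apart. The mRNA of these neighbours moved in different ways, from a log2 change of 1.01 for SHOC2 to −0.36 for PRMT2, against 0.45 for CCND1 and 0.35 for CDK6.

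Around the 10 genes, 71 other genes of the same pathway were listed by role, of which 63 were tested. edgeR called 9 of them lower at 2 h (14.3%) and 0 higher, against 7.66% and 2.26% of all genes, with a median log2 RF change of −0.06. With the passage as a block 20 were called lower and 18 higher, against 28.1% and 25.0% of all genes. Of the 9 calls, 5 came from 1 list. Of 11 tested cyclin-dependent kinases outside the cell cycle core, CDK12, CDK8, CDK17, CDK13 and CDK19 were lower (CDK13 and CDK17 are named here after their values were seen) and the list's median was −0.92. CDK12, which phosphorylates the tail of RNA polymerase II, had RF RPKM values of 29.1 and 26.2 with DMSO and 6.55 and 6.73 with Silvestrol, a log2 change of −1.93 (SE 0.15, adjusted p = 0.016 in edgeR), more negative than that of CDK6. CDK8, a Mediator kinase, had 10.6 and 8.64 against 2.75 and 2.91 (−1.61, adjusted p = 0.033 in edgeR), and its paralog CDK19 had 9.51 and 10.2 against 3.45 and 2.67 (adjusted p = 0.037 in edgeR).

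Among pocket proteins, which bind E2F factors, 0 of 3 were called, with log2 RF changes of −0.19 for RBL1 and 0.37 for RBL2. Of 3 CIP/KIP inhibitors 0 were called, and CDKN1A (p21) had RF RPKM values of 316 and 292 with DMSO and 259 and 248 with Silvestrol, which do not overlap, with a log2 change of −0.14 (adjusted p = 0.55 in edgeR). Of 4 INK4 inhibitors, which bind CDK4 and CDK6, CDKN2C (−0.63) and CDKN2D (−0.25) were tested and not called. None of the 6 genes of the CDK-activating kinase and the CDC25 phosphatases was called, and CDC25B had the largest log2 value there, 0.49. With the block, 2 of these 6 were called lower and 2 higher, against 28.1% and 25.0% of all genes, among them CDC25A lower (adjusted p = 0.0073 in edgeR) and CCNH and CDC25B higher (1.2e-04 and 3.8e-06), and so were CDKN1C (0.036) and CDKN2C (0.023), lower, and RBL2 (0.034), higher.

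Downstream of RB, 1 of 10 E2F and DP factors was called, against 7.66% of all genes called lower and 2.26% higher. It was TFDP2, a partner of E2F factors, at −0.94 (SE 0.18, adjusted p = 0.038 in edgeR), and E2F2 had −1.10 (SE 0.27, adjusted p = 0.061). Of 15 tested E2F targets of S phase entry only CDC6, which loads the replicative helicase, was called without the block, with 112 and 129 RF RPKM with DMSO and 52.4 and 63.2 with Silvestrol (−0.94, adjusted p = 0.026 in edgeR), while RRM2 had 0.81 (adjusted p = 0.053) and CDT1 0.74 (adjusted p = 0.14). Of the ubiquitin ligase genes that act on G1 cyclins and p27, 1 of 9 was called, against 7.66% of all genes called lower, and the list's median log2 change was 0.44. The gene called was CUL1, the scaffold of the SCF ligase, with 55.4 and 65.7 against 17.9 and 21.0 (−1.36, adjusted p = 0.022 in edgeR). Of 6 later cyclins and their kinase, CDK1 alone was called without the block, at −0.60 (SE 0.13, adjusted p = 0.047 in edgeR), and CCNF had 0.81 (adjusted p = 0.060). With the block, 3 of the 15 E2F targets were called lower and 7 higher, against 28.1% and 25.0% of all genes. The same fit called 3 lower and 1 higher of the 10 E2F and DP factors. It called 2 lower and 4 higher of the 9 ubiquitin ligase genes, and 2 lower and 2 higher of the 6 later cyclins and their kinase. RRM2, CDT1, CCNF and RBX1 were then called higher and E2F2 lower in edgeR (adjusted p between 2.4e-15 and 9.4e-05).

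**Figure D5:**
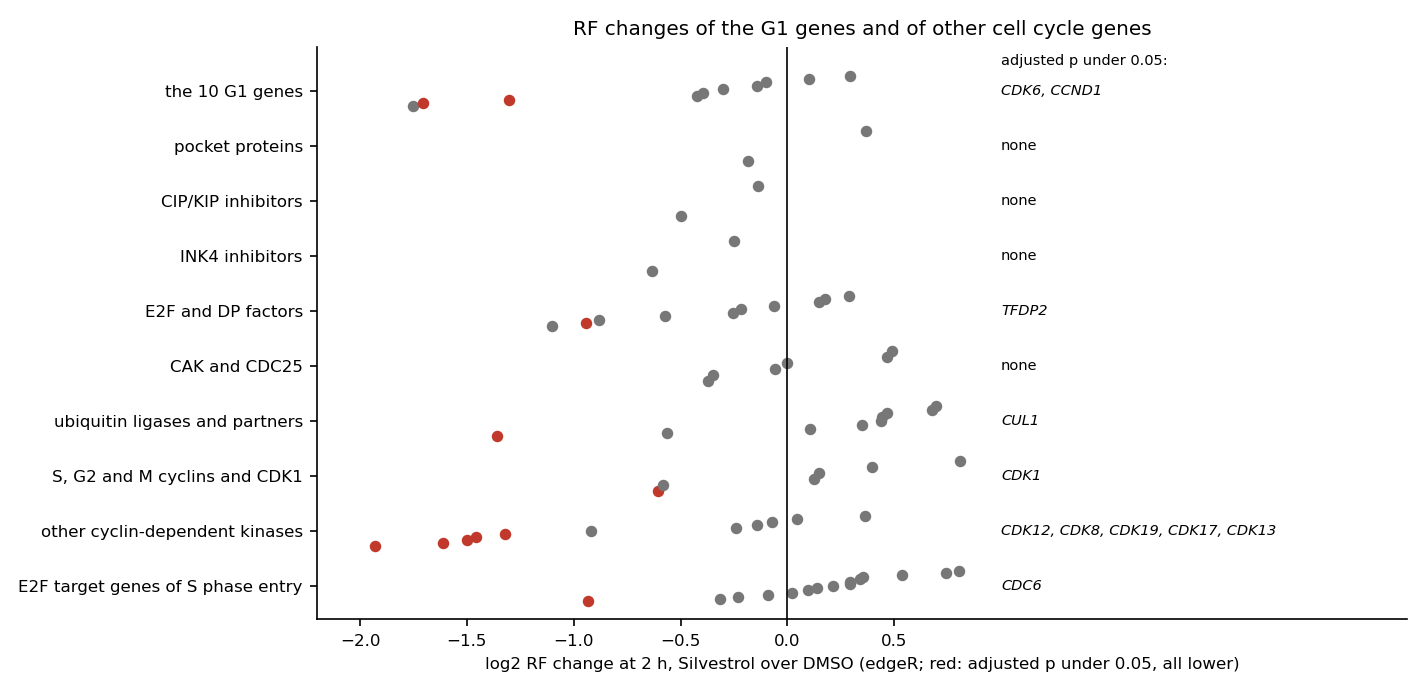
log2 RF change at 2 h (horizontal axis, edgeR, Silvestrol over DMSO) of the 10 G1 genes and of the genes in 9 pathway lists, 1 point per gene, red where the adjusted p was under 0.05. CCND1 and CDK6 are red in the first row, and the other cyclin-dependent kinases hold 5 of the 9 red points of the lists.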

How the data were processed

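For the Silvestrol experiment the authors trimmed linker and polyA sequence, discarded rRNA reads and used Bowtie for alignment to the hg19 genome and UCSC KnownGene canonical transcripts; the submitters' processing notes also name CASAVA 1.8.1 and Bowtie2. The authors deposited read counts and RPKM values for 9 libraries, with RF reads assigned at the ribosomal P-site and mRNA reads at their middle. The authors' RPKM covers only those bases of a transcript where reads could be placed without ambiguity. FPKM values of 4 libraries were deposited by the authors for INK128, and the program behind them is not given in the sources used here. Further deposited columns hold mean RPKM values, their log2, the TE ratio and the authors' own log2 change in TE, none of which was used. A score column deposited by the authors holds that change standardized as a z-score, and it was not used either. No column of per-sample values was set aside (0 columns).

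Repeated lines were dropped, leaving 25758 distinct of 38897. Genes were used if RPKM was above 0 in the 4 passage 3 libraries at 2 h, mean RF RPKM was at least 1 and mean mRNA RPKM at least 0.3, the means taken over passage 3. RF counts (2 libraries per treatment) and the assay by treatment interaction (6 libraries) were tested with edgeR 4.0.16 (TMM scaling, quasi-likelihood, Benjamini-Hochberg over all genes, threshold 0.05) in R 4.3.3, with DESeq2 1.42.0 as an alternative. Both steps were tested on simulated data. TE changes were log2 ratios of RPKM or FPKM without a pseudocount. Ratios between genes were compared with exact permutation tests (scipy 1.17.1), adding 0.1 to RPKM for the cyclins. These tests shuffled libraries without regard to passage or time, so they do not use the pairing. Intervals on read ratios are exact binomial (95%) and cover counting error only. The counted length of a gene can differ between libraries, and an offset for it was an alternative. The block was the passage: the labels give passages 3 and 4 for both treatments, and the deviations of the passages from the treatment means had a correlation of r = 0.589 across treatments (10435 genes). Nothing states that passages were separate thaws, so p-values measure at most the spread between these cultures. Those of the RF fit with the passage block rest almost wholly on a spread pooled over genes, not on each gene's own.

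5′ UTRs were taken from the MANE Select transcript, or failing that the longest coding one (GENCODE version 44 on GRCh37), folded with RNAfold 2.7.2. Older symbols in the Silvestrol table were matched through RefSeq synonyms for 11 pathway genes. Among the listed genes that were not tested are CDK11A, CDK18, CDK20, CDKN2A, CDKN2B, CKS1B and FBXW7, and 1 item is not reported here. The 10 members, the pathway lists and the tests were chosen with earlier results of these data known. From each list the text names up to 3 genes with the largest absolute log2 RF change among those with at least 50 RF reads at 2 h; further names are marked where they occur. For CCND1 and CDK6 it names the 3 genes most alike in pattern.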

Additional observations from a re-analysis of the deposited data

Results flagged for a closer look

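CCND3 had an RF change at 1 h (log2 −0.277) opposite in sign to its changes in both passages at 2 h (0.07 and 0.21). The 1 h value rests on 1 library per treatment, and the difference between the times was not tested.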

How the results depend on the processing

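The counts of members called lower in RFs at 2 h (2) and of members called higher (0) were 6 and 1 with the replicate block by passage, 4 lower with the 3 pairs and 4 lower with the untreated control added; single-library omissions gave 0 to 3 lower. The count of TE calls (0 lower, 0 higher) was 1 lower without a minimum RPKM, 2 lower and 1 higher with DESeq2, and 6 lower and 2 higher with the replicate block; single-library omissions gave 0 to 3 lower. Single-library omissions turned the sign of the log2 RF change of CCNE1 (from −0.372 to 0.0594) and of CDKN1B (from −0.230 to 0.0535), and of the log2 TE change of CCNE1 (from −0.21 to 0.166), which was also positive with RLE scaling (0.0326) and DESeq2 (0.0301). With a pseudocount of 0.1, 1 of all 10 members rather than 0 had a relative TE 2-fold lower with INK128, CCND2 (−1.045, and −0.92 without it), which is below the FPKM minimum and not among the 9 counted above. The causes were not tested. Taking the minimum RF RPKM over all 4 RF libraries at 2 h, an alternative chosen after seeing the data, left the members' calls as they were, with 791 lower and 215 higher RF calls over all genes in place of 805 and 238, and 2 TE calls in place of 0. The number of members whose treated libraries all lay below the controls was 4 rather than 6 in CPM. The z-score and 1 h counts stayed within 1.5 times of those reported under every alternative run, and so did the INK128 counts aside from that pseudocount. The log2 difference of the CDK6 to CDK4 ratio ranged from −1.41 to −1.23, and that of the D-type to E-type cyclins from −1.10 to −0.29, neither changing sign. Depth limits CCND2 most, with 2 reads in the passage 4 Silvestrol library, and the INK128 FPKM values carry no read counts.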
